A study of Sus scrofa with 12 samples.

Results

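Paternally expressed imprinted genes that were silent or low in both parthenogenetic pig embryonic stem cell (ESC) lines are described here across all cells of the series. The set holds 7 genes, SNRPN, PEG10, SGCE, NAP1L5, PLAGL1, NNAT and DIRAS3, which lie on 9 of the 30012 loci of the expression table. They were chosen by name because their level in both parthenogenetic lines was far below that in ESCs from a fertilised embryo. That difference is therefore given as a description and supports nothing. Not all were silent: NNAT kept 1.5 to 2.09 FPKM in the parthenogenetic libraries and PLAGL1 kept 0.3 to 0.588 FPKM. DIRAS3 kept 11.5% of the IVF level in ESC7 and 3.28% in ESC3. That was at most 0.253 FPKM, as its IVF mean was 1.26 FPKM, and its means in both lines were below those of PEG10. Where a symbol had several loci, the locus with the highest mean over 12 libraries was used, and the others are given beside it.

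At an imprinted gene, DNA methylation set down in the egg or the sperm marks 1 parental copy, and only 1 copy is transcribed. A paternally expressed gene is transcribed from the copy that came through the sperm. A parthenogenetic embryo grows from an activated egg without a sperm. Both of its copies are therefore maternal, and paternally expressed genes are expected to be off. Imprinted genes of this kind act in placental growth, metabolism and brain development in mouse and human, and their state in ESCs is followed as a measure of how well the parental marks are kept in culture.

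RNA was sequenced from parthenogenetic line 7 (ESC7), parthenogenetic line 3 (ESC3), line 11 from in vitro fertilisation (IVF; ESC11) and fetal fibroblasts, with 3 libraries each. All 3 ESC lines were grown on feeder cells in one serum-replacement medium with FGF2, activin A and the inhibitors CH and IWR-1, and were sorted on magnetic columns for SSEA1, a surface sugar of undifferentiated pig ESCs, before RNA extraction. The fibroblasts came from a fetus at day 30 of pregnancy and were at passage 6. The labels call them the somatic control. Each group is 1 line or 1 isolate, so with 2 parthenogenetic lines against 1 IVF line the origin of the embryo cannot be told apart from the line. No label says that the 3 libraries of a group are separate cultures, so p-values reflect library-to-library spread alone, and this spread may be technical. In bulk RNA, fewer expressing cells and less RNA per cell cannot be told apart.

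Levels are given in FPKM, the fragments of a transcript divided by its length in kilobases and by the mapped fragments of the library. The libraries held 21898 to 24100 loci above 0, with a median FPKM of 4.59 to 5.05 over those loci, and the read depth is unknown. The labels were checked against markers. All 10 pluripotency markers were found, and their summed FPKM was 3675.9 to 3880.3 in ESC7, 3643.1 to 3725.1 in ESC3, 3762.5 to 3845.6 in ESC11 and 1.43 to 1.86 in fibroblasts. The 12 fibroblast markers summed to 101 to 120 FPKM in ESC7, 110 to 137 in ESC3, 93.2 to 97.9 in ESC11 and 20648.6 to 21053.2 in fibroblasts. Of those 12, LUM and TWIST1 were listed at 0 in all ESC3 libraries, POSTN was listed at 0 in all ESC11 libraries and none in all ESC7 libraries. Of the neural markers, 5 of 6 had a locus, and their sums were 54 to 62.2 FPKM in ESC7, 241 to 276 in ESC3, 146 to 156 in ESC11 and 215 to 226 in fibroblasts. In the ESC lines these sums rest mostly on TUBB3, with means of 44.7 FPKM in ESC7, 245 in ESC3 and 139 in ESC11. PAX6, NES and NCAM1 were highest in fibroblasts, and MAP2 was lowest there. Of the trophectoderm markers, 5 of 6 had a locus, with sums of 4199.0 to 6577.7 FPKM in ESC7, 0.925 to 24207.4 in ESC3, 3067.2 to 6428.7 in ESC11 and 4329.3 to 24611.7 in fibroblasts that rest on a 117 bp KRT7 locus.

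SNRPN, which encodes a protein of the small ribonucleoproteins that splice messenger RNA, was the highest of the genes in ESC11 after SGCE and was close to 0 in both parthenogenetic lines. Its locus (ENSSSCG00000028124.L01) lies on the unplaced scaffold GL896379.1, from 22821 to 48725 on the minus strand of Sscrofa10.2. SNRPN had 0.144, 0.0319 and 0.202 FPKM in ESC7, 0.308, 0.0424 and 0.0776 FPKM in ESC3, 159, 153 and 150 FPKM in ESC11, and 27.7, 27.5 and 26.8 FPKM in fibroblasts. All 6 parthenogenetic libraries were far below both other groups, and the ESC11 libraries were all above the fibroblasts. The residual share of the ESC11 level was 0.0818% in ESC7 and 0.0927% in ESC3.

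PEG10 and SGCE are neighbours on chromosome 9. PEG10 derives from a retrotransposon and is needed for the placenta in mouse, and SGCE encodes epsilon-sarcoglycan, a membrane protein of the dystrophin-associated complex. PEG10 lay on a locus outside the Ensembl annotation (XLOC_023612, 81651789 to 81655368, plus strand) that the authors' table names PEG10. It had 0, 0 and 0.939 FPKM in ESC7, 0.333, 0.31 and 0.0918 FPKM in ESC3, 80.4, 79.2 and 85 FPKM in ESC11, and 1397.5, 1390.2 and 1539.8 FPKM in fibroblasts. The parthenogenetic libraries were near 0, ESC11 was in between and the fibroblasts were the highest, with no overlap between these 3 levels. Residual shares of the ESC11 level were 0.384% in ESC7 and 0.3% in ESC3, and in ESC7 the whole of it came from library 3.

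SGCE was split over 3 loci. The highest was a 205 bp unannotated locus (XLOC_024672, 81700452 to 81700656) with 0, 0 and 22.3 FPKM in ESC7, 0, 30.1 and 0 FPKM in ESC3, 377, 408 and 246 FPKM in ESC11, and 8155.6, 8385.2 and 5137.4 FPKM in fibroblasts. In each parthenogenetic line 2 of 3 libraries were listed at 0 and 1 was not, so the residual shares of 2.16% in ESC7 and 2.93% in ESC3 rest on 1 library each. FPKM on so short a locus is coarse, since it is near the 100 bp read length.

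The Ensembl locus ENSSSCG00000015328.L01 (81600250 to 81642854, minus strand) gave SGCE 0, 0.0953 and 0 FPKM in ESC7, 0 in all 3 ESC3 libraries, 6.87, 8.69 and 10.9 FPKM in ESC11, and 133, 134 and 137 FPKM in fibroblasts. A further Ensembl locus, ENSSSCG00000021455.L01 (81472184 to 81486496, plus strand), lies inside CASD1 on the same strand. It was listed at 0 in all 6 parthenogenetic libraries, with 11.1, 18.2 and 7.11 FPKM in ESC11 and 110, 100 and 124 FPKM in fibroblasts. The 3 SGCE loci gave the same order of groups, with fibroblasts above ESC11 and ESC11 above both parthenogenetic lines.

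NAP1L5 encodes a protein related to nucleosome assembly factors. Its locus (ENSSSCG00000009209.L01, chromosome 8, 139774241 to 139776175, plus strand) lies inside HERC3, which is on the opposite strand. NAP1L5 had 0.0544, 0.0832 and 0.029 FPKM in ESC7, 0 in all 3 ESC3 libraries, 6.03, 5.93 and 6.08 FPKM in ESC11, and 2.01, 2.89 and 2.61 FPKM in fibroblasts. The 4 groups did not overlap, with ESC11 highest and ESC3 listed at 0. The residual share was 0.924% of the ESC11 level in ESC7.

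PLAGL1 encodes a zinc finger transcription factor that acts in an imprinted gene network in mouse. Its locus (ENSSSCG00000004127.L01) spans 23602459 to 23708359 on the plus strand of chromosome 1. PLAGL1 had 0.451, 0.3 and 0.588 FPKM in ESC7, 0.364, 0.461 and 0.452 FPKM in ESC3, 7.98, 7.09 and 8.13 FPKM in ESC11, and 6.97, 6.76 and 6.21 FPKM in fibroblasts. The parthenogenetic lines overlapped each other and stayed below both other groups, which lay close together. The residual shares were 5.77% of the ESC11 level in ESC7 and 5.51% in ESC3.

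NNAT encodes neuronatin, a small membrane protein of the endoplasmic reticulum best known from the developing brain. Its locus (ENSSSCG00000007336.L01, chromosome 17, 46041861 to 46047799, plus strand) lies inside BLCAP on the opposite strand. NNAT had 1.54, 1.74 and 1.5 FPKM in ESC7, 1.68, 2.09 and 1.55 FPKM in ESC3, 11.1, 10.7 and 11.4 FPKM in ESC11, and 8.31, 9.27 and 8.35 FPKM in fibroblasts. Every parthenogenetic library was above 1, and no other Ensembl member kept so high a level in these lines. The residual shares, 14.4% of the ESC11 level in ESC7 and 16% in ESC3, were the largest in the set. Whether the authors counted by strand is not given in the sources used here, so reads of NNAT and BLCAP, and of NAP1L5 and HERC3, cannot be told apart with certainty.

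DIRAS3 encodes a small GTPase of the Ras family that restrains growth in human cells. Its locus (ENSSSCG00000003797.L01) spans 133821117 to 133867486 on the plus strand of chromosome 6. DIRAS3 had 0.113, 0.0721 and 0.253 FPKM in ESC7, 0.0405, 0.043 and 0.041 FPKM in ESC3, 1.31, 1.16 and 1.33 FPKM in ESC11, and 4.27, 3.95 and 3.5 FPKM in fibroblasts. The groups did not overlap, and the order was fibroblasts, ESC11, ESC7 and ESC3. The residual share was 11.5% of the ESC11 level in ESC7 and 3.28% in ESC3. DIRAS3 was the weakest member in ESC11, so its shares rest on the lowest levels. Inside its span lie 12 unannotated or repeat-named loci, with means of 0.375 to 2.12 FPKM in fibroblasts and at most 0.0879 in ESC7, 0.0983 in ESC3 and 0.0274 in ESC11.

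**Figure D1:**
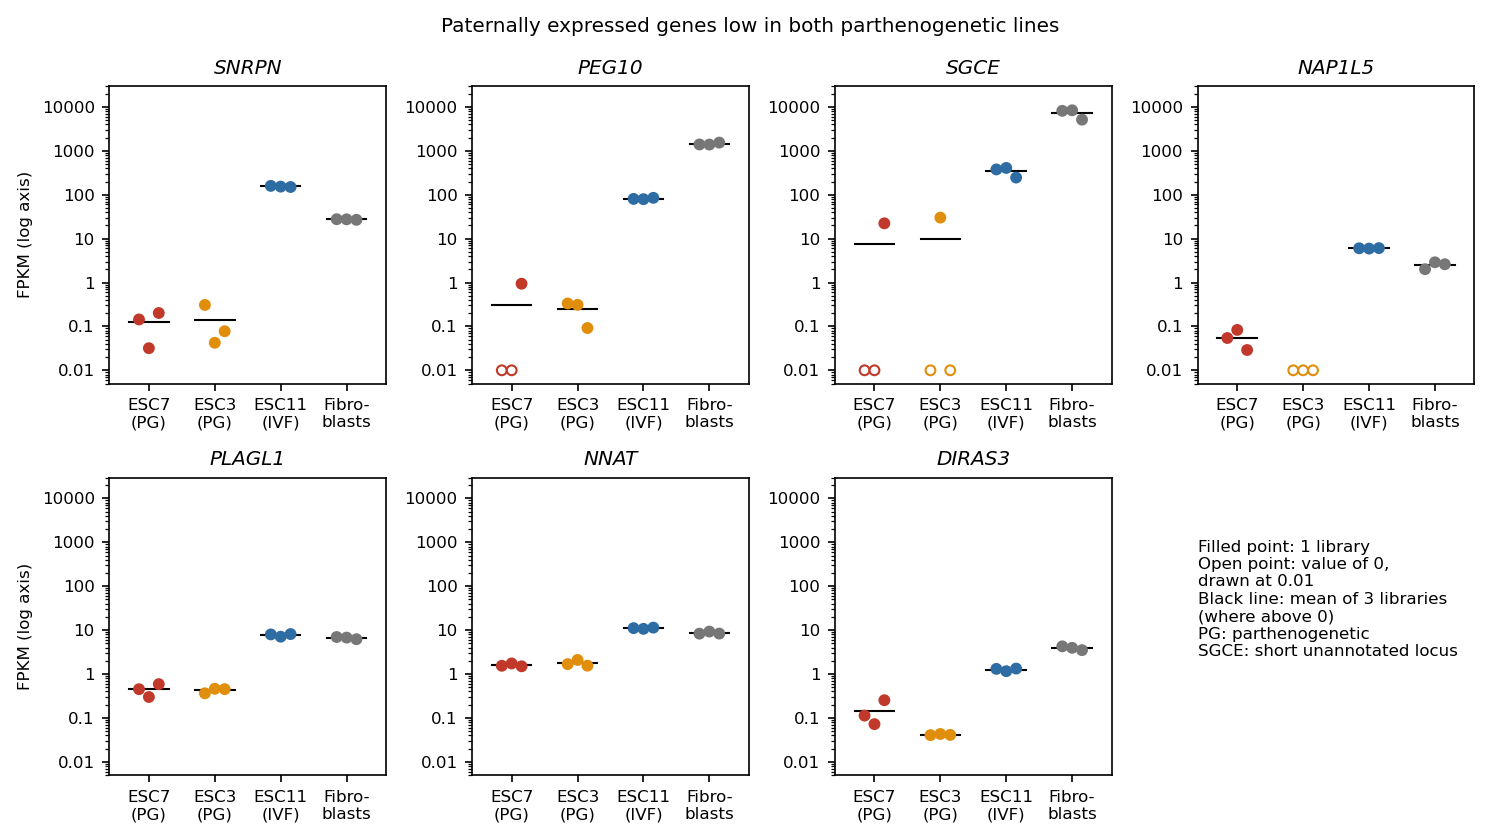
FPKM (log axis) of the 7 genes in each library of ESC7 and ESC3 (parthenogenetic, PG), ESC11 (IVF) and fibroblasts, 3 libraries a group; points are libraries, lines are group means, and open points are values of 0 drawn at 0.01. For every gene all 6 parthenogenetic libraries lie below all ESC11 and fibroblast libraries, and SGCE has 1 library above 0 in each parthenogenetic line.

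The residual levels fell into 3 ranges. SNRPN, PEG10 and NAP1L5 were under 1% of the ESC11 mean in both lines. SGCE and PLAGL1 lay between 2.16% and 5.77%. NNAT and, in ESC7, DIRAS3 were at 11.5% or more, but the DIRAS3 share in ESC7 was 7.31% without ESC7 library 3. The median share over the set was 2.16% in ESC7 and 2.93% in ESC3, and it was 0.924% in ESC7 and 0.3% in ESC3 when SGCE was taken from its higher Ensembl locus, an alternative chosen after seeing the data. Just inside the choice lay NNAT and DIRAS3, and just outside it lay PEG3, at 8.86% in ESC7 and 60.1% in ESC3, and MEST, at 17.3% in ESC7 and 110% in ESC3.

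All 7 genes passed the filter of at least 1 FPKM in 3 libraries, which left 18278 loci, and they could pass it through ESC11 or fibroblasts alone. Differences were tested with limma on the log2(FPKM + 1) scale. A locus was called where its Benjamini-Hochberg adjusted p over all tested loci was below 0.05 and its log2 difference was 1 or more in size. The contrast with ESC11 chose the genes, so its counts restate that choice and nothing is read from them: 6 of the 7 passed as lower in ESC7, where 0.799% of all tested loci did, and 7 of 7 in ESC3, where 0.996% did. Of 16314 tested loci with a mean of at least 1 FPKM in ESC11, 64 were under 20% of the ESC11 level in both lines, 26 of these with an Ensembl identifier. The 7 genes are among the 64 by the way they were chosen. The median share over the 16314 loci was 103% in ESC7 and 101% in ESC3.

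PEG10 and SGCE were the members with the highest fibroblast levels, and fibroblast transcripts were therefore read beside their residual values. PEG10 was at 0%, 0% and 0.0651% of its fibroblast mean in the 3 ESC7 libraries, where the collagen gene COL3A1 was at 0.000792%, 0.000759% and 0.0425% of its own. In ESC3, PEG10 was at 0.0231%, 0.0215% and 0.00637%, and COL3A1 at 0.0229%, 0.0192% and 0%. Of the 12 fibroblast markers, 2 (COL3A1 and COL1A2) were highest in the same 3 libraries as PEG10, and the other 10 were not. COL3A1 was singled out after its values were seen. The short SGCE locus was at 0%, 0% and 0.308% of its fibroblast mean in ESC7 and at 0%, 0.417% and 0% in ESC3, so ESC3 library 1 had COL3A1 and PEG10 but no SGCE. The collagen gene COL1A1 was at 0.324%, 0.24% and 0.271% of its fibroblast mean in ESC7 and at 0.504%, 0.191% and 0.243% in ESC3, in another order. VIM was at 0.742%, 0.814% and 0.915% in ESC7 and at 1.12%, 0.995% and 0.979% in ESC3, above ESC7 in every library. The 12 fibroblast markers together were at 0.519% of their fibroblast sum in ESC7, 0.571% in ESC3 and 0.455% in ESC11. The part of such transcripts in the residual levels was not tested.

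The comparison of ESC11 with fibroblasts asks how high the genes run in stem cells of a fertilised embryo and in a somatic cell. It uses the fibroblast libraries, which played no part in the choice, although ESC11 did. Of the 7 genes, 2 were higher in ESC11 (SNRPN and NAP1L5), beside 27.4% of all tested loci, and 3 were lower (PEG10, SGCE and DIRAS3), beside 15.5%, so that 5 of 7 were called in either direction, beside 42.9%. PLAGL1 and NNAT were not called. The median log2 difference was 0.19 over the set and 0.39 over all tested loci, so the set had no common direction between these cells.

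SNRPN averaged 154 ± 4.95 FPKM in ESC11 and 27.4 ± 0.483 FPKM in fibroblasts (SD, n = 3 each), a ratio of 5.63. Its log2 difference was 2.45 ± 0.09 (SE; limma adjusted p = 5.96e-10). NAP1L5 averaged 6.01 ± 0.0733 FPKM in ESC11 and 2.5 ± 0.447 FPKM in fibroblasts, with a log2 difference of 1.01 ± 0.08 (limma adjusted p = 6.15e-07). This is next to the minimum of 1. It was 0.68 after median-ratio scaling, 0.69 after quantile normalization, 0.56 with a pseudocount of 5 and 0.9 without fibroblast library 1, and NAP1L5 was not called in these 4 settings.

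PEG10 averaged 81.5 ± 3.06 FPKM in ESC11 and 1442.5 ± 84.3 FPKM in fibroblasts (SD, n = 3 each), a log2 difference of -4.13 ± 0.22 (SE; limma adjusted p = 1.59e-08). SGCE fell with it on all 3 loci. The log2 differences were -4.39 ± 1.44 on the 205 bp locus (limma adjusted p = 0.0156), -3.81 ± 0.12 on the minus-strand Ensembl locus (adjusted p = 2.43e-10) and -3.18 ± 0.24 on the other (adjusted p = 3.25e-07). The short locus lost its call with a pseudocount of 0.1 (adjusted p = 0.116). DIRAS3 averaged 1.26 ± 0.0912 FPKM in ESC11 and 3.91 ± 0.387 FPKM in fibroblasts, a log2 difference of -1.11 ± 0.08 (limma adjusted p = 1.41e-07). That difference was -0.51 with a pseudocount of 5 and -0.60 with libraries scaled to the same sum, below the minimum in both.

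PLAGL1 averaged 7.73 ± 0.562 FPKM in ESC11 and 6.65 ± 0.391 FPKM in fibroblasts (SD, n = 3 each), a log2 difference of 0.19 ± 0.08 (limma adjusted p = 0.05). NNAT averaged 11.1 ± 0.325 FPKM in ESC11 and 8.65 ± 0.543 FPKM in fibroblasts, a log2 difference of 0.32 ± 0.08 (limma adjusted p = 0.00249) that did not reach the minimum. Both differences lay below the median of all loci, by -0.20 for PLAGL1 and -0.07 for NNAT. After median-ratio scaling, which placed the median of all loci at 0.03, they were -0.19 for PLAGL1 and -0.06 for NNAT, while with libraries scaled to the same sum NNAT was at 1.11 and was called. No direction is given for either gene. SNRPN, at 2.03, and PEG10, at -4.55, kept theirs.

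**Figure D2:**
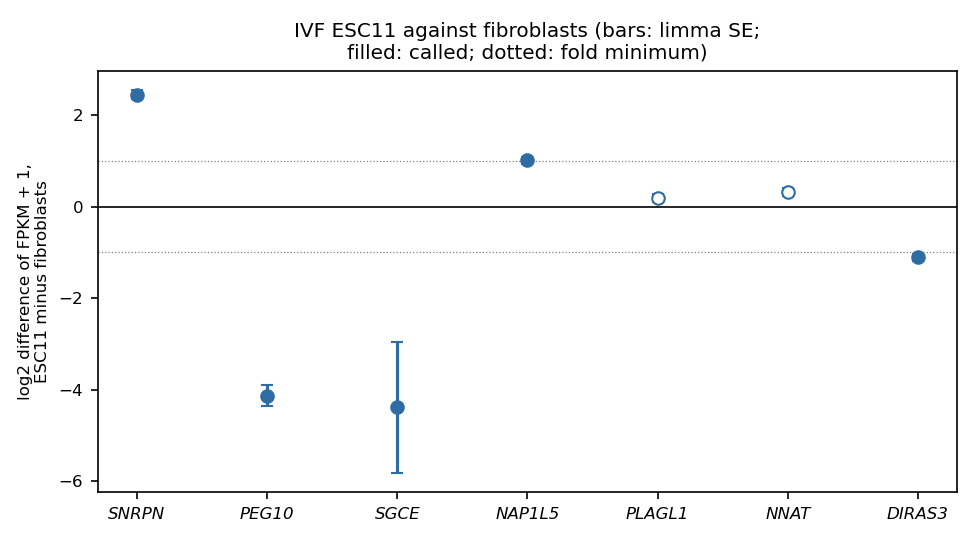
Log2 difference of ESC11 minus fibroblasts on the log2(FPKM + 1) scale for the 7 genes, each on its highest locus; bars are standard errors from limma, filled points were called, and dotted lines mark the minimum difference of 1. SNRPN (2.45) and NAP1L5 (1.01) lie on the higher side, PEG10 (-4.13), SGCE (-4.39) and DIRAS3 (-1.11) on the lower side, and PLAGL1 and NNAT are open points.

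The comparison of ESC7 with ESC3 asks whether the 2 parthenogenetic lines differ in what is left of these genes. None of the 7 was called with limma, beside 3.38% of all tested loci (2.34% higher and 1.04% lower in ESC7), and 0 of 7 had an unadjusted p under 0.05. The choice of genes low in both lines leaves little room for such a difference. The largest on the log2 scale was on the short SGCE locus, -0.14 ± 1.44 (SE; limma adjusted p = 0.96). It has no stable direction, at 1.51 without ESC3 library 2 and -1.65 without ESC7 library 3. The next was for DIRAS3, 0.13 ± 0.08 (adjusted p = 0.192). The libraries of the 2 lines overlapped for 5 genes. They did not for DIRAS3 and NAP1L5, where all 3 ESC7 libraries were above all 3 ESC3 libraries. The share of all tested loci that separate in this way was not counted, so nothing is read from it. Both genes were at 0.253 FPKM or less in these libraries. On levels this low the pseudocount of 1 sets the scale: with 0.1 the DIRAS3 difference was 0.73 ± 0.22 (limma adjusted p = 0.0274), still under the minimum.

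The loci around the genes were examined next, since imprinted genes lie in groups that share a control region. Within 200 kb of the 9 loci lay 45 other loci, 28 of them tested. In each parthenogenetic line 5 of the 28 were lower than in ESC11 with limma and 0 were higher, and the 5 were the same in both lines. Over all tested loci, 0.367% were lower in both. The median log2 difference over the 28 was -0.02 in ESC7, where it was 0.05 over all tested loci, and -0.01 in ESC3, where it was 0.01. Of the 5 loci, 4 were on the SNRPN scaffold and 1 lay between SGCE and PEG10, and the authors' table names no gene for any of them. Whether they are loci of their own or unannotated parts of SNRPN and PEG10 transcripts was not tested. If they are parts, their drop restates the choice of the genes, so the 5 are not read as independent neighbours.

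The 4 loci on the SNRPN scaffold lie from 3793 to 19851, beyond the 3' end of the minus-strand SNRPN locus. XLOC_028024 and XLOC_028025 lie wholly inside the longest of them, so the 4 are not separate regions. The longest, XLOC_028022 (7595 to 19851, minus strand), lies 2970 bp from SNRPN. It had 0.0429, 0.682 and 0.252 FPKM in ESC7, 0.4, 0.315 and 0.425 FPKM in ESC3, 309, 297 and 324 FPKM in ESC11, and 36.6, 37.1 and 35.2 FPKM in fibroblasts. The groups stood as they did for SNRPN, with a ratio of ESC11 to fibroblasts of 8.54, where SNRPN had 5.63. The log2 differences from ESC11 were -7.90 ± 0.14 in ESC7 (limma adjusted p = 1.04e-10) and -7.82 ± 0.14 in ESC3 (adjusted p = 1.37e-10). If XLOC_028022 is part of the SNRPN transcript, these p-values restate the choice of SNRPN. XLOC_028024, a 299 bp locus inside XLOC_028022, was listed at 0 in all 6 parthenogenetic libraries. It averaged 129 ± 30.1 FPKM in ESC11 and 13.6 ± 3.65 FPKM in fibroblasts (SD, n = 3 each). All 4 were higher in ESC11 than in fibroblasts, with a median log2 difference of 3.03.

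The locus between SGCE and PEG10, XLOC_023611 (chromosome 9, 81642999 to 81649714, plus strand), begins 145 bp from the minus-strand SGCE locus. The PEG10 locus follows it on the same strand, from 81651789. XLOC_023611 had 0, 0 and 0.475 FPKM in ESC7, 0, 0.252 and 0 FPKM in ESC3, 66, 72.8 and 78 FPKM in ESC11, and 1133.3, 1178.1 and 1138.5 FPKM in fibroblasts. The groups stood in the same order as for PEG10, at somewhat lower means in each of the 4. The log2 differences from ESC11 were -6.00 ± 0.15 in ESC7 (limma adjusted p = 1.27e-09) and -6.08 ± 0.15 in ESC3 (adjusted p = 1.86e-09). If XLOC_023611 is part of the PEG10 transcript, these p-values restate the choice of PEG10.

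Neighbours with a gene symbol were not called. Of 20 tested, 0 passed with limma in ESC7 against ESC11, beside 2.94% of all tested loci, and 0 in ESC3 against ESC11, beside 2.48%, with an unadjusted p under 0.05 in 9 for ESC7 and in 4 for ESC3. The calls are near the background of calls. An adjusted p was under 0.05 in 7 of the 20 for ESC7 and in 3 for ESC3, all with differences under the minimum. The share of all tested loci with such p-values, adjusted or not, is not given here, so no shift is read from these counts. Among the 17 with a mean of at least 1 FPKM in ESC11, the level in ESC7 was 77.7% (SF3B5, locus XLOC_001140) to 138% (HERC5) of that in ESC11, with a median of 100%. In ESC3 it was 75.1% (HERC3) to 158% (FAM13A, locus XLOC_022938), with a median of 98.1%. Around NAP1L5, its host HERC3, a ubiquitin ligase gene, averaged 36.6 ± 2.1 FPKM in ESC7, 26.7 ± 0.471 FPKM in ESC3 and 35.5 ± 0.411 FPKM in ESC11 (SD, n = 3 each). The ESC3 difference was -0.40 ± 0.04 on the log2 scale (limma adjusted p = 9.72e-05), under the minimum. BLCAP, the host of NNAT and itself listed as paternally expressed, averaged 23.4 ± 0.823 FPKM in ESC7, 21 ± 0.702 FPKM in ESC3 and 18.9 ± 0.868 FPKM in ESC11. The 2 host genes thus kept most of their level in the lines where the genes inside them were at 16% or less.

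The genes beside SGCE and PEG10 did the same between ESC lines. CASD1, a sialic acid acetyltransferase gene, averaged 17.9 FPKM in ESC7, 14.2 FPKM in ESC3 and 15.4 FPKM in ESC11, and PPP1R9A, which encodes an actin-binding protein of neurons, averaged 5.62, 6.17 and 6.08 FPKM in the same order. PPP1R9A is listed as maternally expressed, and its highest locus, farther away, averaged 44.7, 39.8 and 48.3 FPKM in that order. On the other side of CASD1, COL1A2 averaged 1.28, 1.15 and 0.823 FPKM in ESC7, ESC3 and ESC11, against 2321.9 FPKM in fibroblasts. GPR177, listed as WLS in the gene name table and needed for Wnt secretion, ends 103 bp before DIRAS3. It averaged 4.53 FPKM in ESC7, 2.88 FPKM in ESC3 and 3.57 FPKM in ESC11, against 105 ± 3.82 FPKM in fibroblasts.

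**Figure D3:**
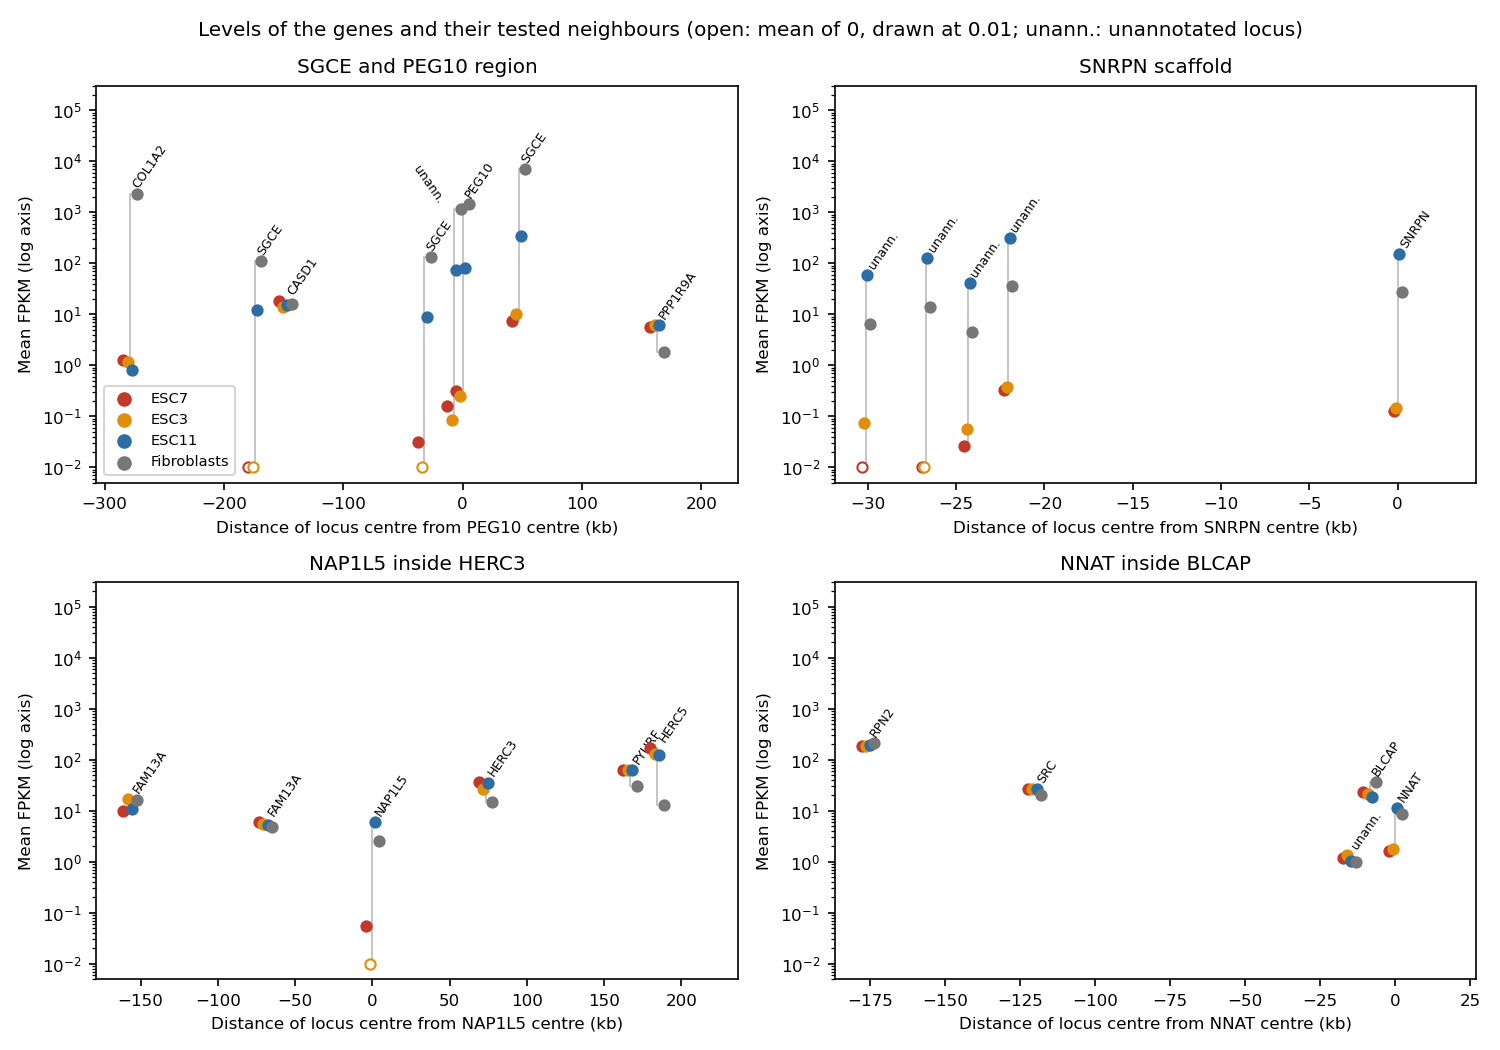
Mean FPKM (log axis, 3 libraries a group) of SGCE and PEG10, SNRPN, NAP1L5 and NNAT and of the tested loci around them, by the distance of the locus centre in kb. Grey lines mark the locus centres, with the points of the 4 groups set slightly apart, and means of 0 are open points at 0.01; the unannotated loci beside SNRPN and PEG10 drop with these genes in ESC7 and ESC3, while HERC3, BLCAP, CASD1 and PPP1R9A do not.

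Other paternally expressed genes are those that remained once the 7 had been taken out for being low in both lines, so that none of them is low in both follows from that split. Of 19 listed, 13 had a locus and 9 were tested. In ESC7 against ESC11, 4 of 9 were lower with limma and 0 higher, beside 0.799% lower over all tested loci. In ESC3 against ESC11 0 of 9 were called with limma, beside 2.48% in either direction, so the count of calls is near the background. An unadjusted p was under 0.05 in 8 of them and an adjusted p in 5, with differences under the minimum. Those 5 were PEG3 (-0.58), INPP5F (-0.26) and ZDBF2 (-0.20) on the lower side, and MAGEL2 (0.50) and IMPACT (0.20) on the higher. The share of all tested loci with such p-values, adjusted or not, is not given here, so no shift is read from these counts. The median log2 difference over the 9 was -0.07 in ESC7 and 0.12 in ESC3. The 4 genes lower in ESC7 were MEST, at -2.09, PEG3, at -1.99, MAGEL2, at -3.32, and MKRN3, at -1.49. With a pseudocount of 5, PEG3 (-0.83) and MKRN3 (-0.45) were not called. In ESC3 the levels were 110% of ESC11 for MEST, 60.1% for PEG3, 144% for MAGEL2 and 139% for MKRN3. The remaining 5 were at 109% (INPP5F), 102% (IMPACT), 96.9% (L3MBTL1), 124% (BLCAP) and 144% (ZDBF2) of the ESC11 level in ESC7, and at 82.8%, 115%, 78.7%, 111% and 85.9% in ESC3, in the same order. DLK1, RTL1, IGF2 and NPAP1 had a locus but did not pass the filter, and IGF2 and NPAP1 were listed at 0 in all 12 libraries. The only IGF2 locus spans 2416 bp from base 1 of the scaffold GL896425.1. Whether it covers the whole gene was not tested, so its 0 is not read as absence of IGF2 RNA.

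**Figure D4:**
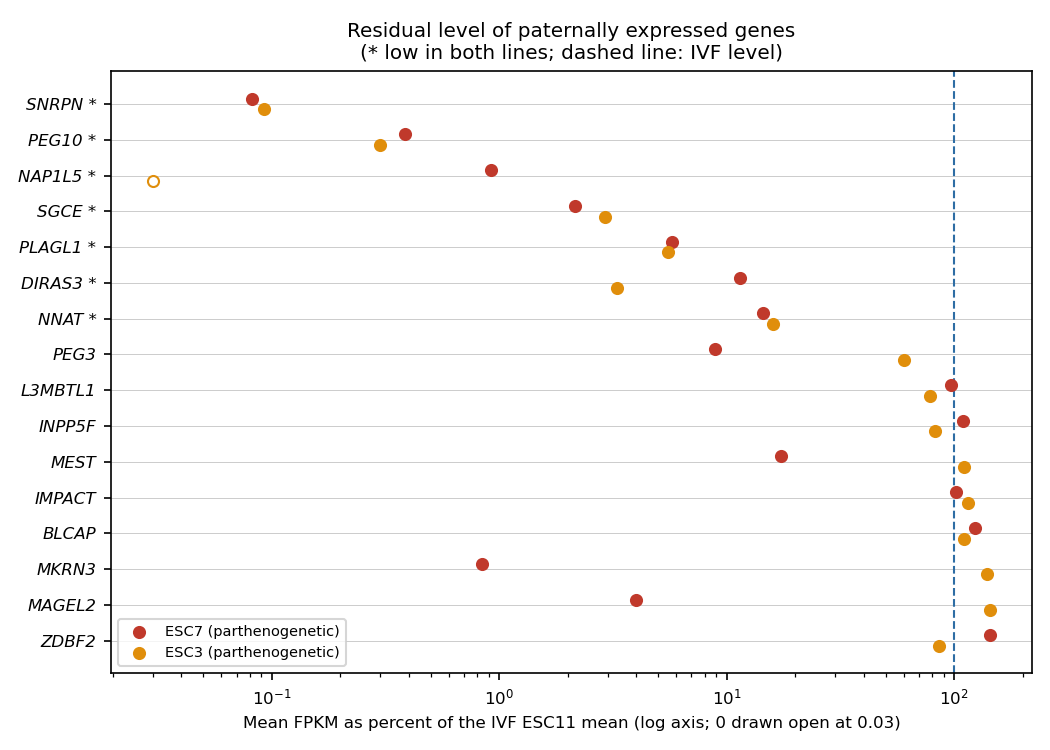
Mean level of each tested paternally expressed gene in ESC7 and in ESC3 as a percent of the ESC11 mean (log axis; dashed line, the ESC11 level; each point is a mean of 3 libraries, and the open point is NAP1L5 in ESC3, listed at 0). The 7 genes marked with an asterisk were at 16% or less in both lines, while MEST, PEG3, MAGEL2 and MKRN3 were low in ESC7 and at 60.1% or more in ESC3.

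MAGEL2 and MKRN3, which in human lie in the same imprinted region as SNRPN, differed from it in ESC3. MAGEL2 had 0.463, 0.742 and 0.583 FPKM in ESC7, 19.3, 22.5 and 22.3 FPKM in ESC3, and 15.4, 15.6 and 13.6 FPKM in ESC11. SNRPN was near 0 in the same ESC3 libraries. In the table MAGEL2 and MKRN3 are on chromosome 1, and SNRPN is on a scaffold that this build does not place. The distance between them is not given by these files.

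Genes listed for imprint maintenance, which include general DNA methylation genes, were measured in the same libraries. DNMT3B, on this list, is also among the pluripotency markers. Of 15 listed, 14 had a locus and 13 were tested. In ESC11 against fibroblasts 5 of 13 were higher with limma, beside 27.4% of all tested loci, and 0 were lower, beside 15.5%, with a median log2 difference of 0.80 against 0.39 over all tested loci and an unadjusted p under 0.05 in 12. The 5 were DNMT3B (8.60), DNMT3A (1.73) and HELLS (3.44), which act in DNA methylation, and DPPA3 (1.68) and ZNF445 (1.11). DPPA3 protects maternal methylation in the fertilised mouse egg, and ZNF445 is a zinc finger protein that binds imprinting control regions. Between the lines, 0 of 13 were called with limma in ESC7 against ESC11 and 0 in ESC3 against ESC11, with an unadjusted p under 0.05 in 10 for ESC7 and in 7 for ESC3. The calls, 0 of 13 in each line, are near the background of 2.94% in ESC7 and 2.48% in ESC3. That background holds for calls with the minimum difference only. An adjusted p was under 0.05 in 8 of the 13 for ESC7 and in 6 for ESC3, all with differences under the minimum. The share of all tested loci with such a p is not given here. ZFP57, another zinc finger protein of this kind, was too low to be tested, at 0.863 FPKM in ESC7, 0.0315 FPKM in ESC3, 0.472 FPKM in ESC11 and 0.437 FPKM in fibroblasts.

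Patterns over the 12 libraries were compared with the Pearson correlation of log2(FPKM + 1), which describes mostly the 4 group means that the libraries share. Among 11854 Ensembl loci with a gene symbol, KBTBD6 and ABT1 were most like SNRPN, each with r = 0.998 over 12 libraries, and also most like NAP1L5, with 0.996 and 0.993. KBTBD6 was listed at 0 in all 6 libraries of ESC7 and ESC3 and averaged 12.4 FPKM in ESC11 and 4.57 FPKM in fibroblasts. ABT1 averaged 0.00939 FPKM in ESC7, 0.0328 FPKM in ESC3, 7.08 FPKM in ESC11 and 2.67 FPKM in fibroblasts. Neither gene is in the list of paternally expressed genes used here.

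PLAGL1 and NNAT also had the same nearest gene, FJX1, with r = 0.994 and 0.989 over 12 libraries. It averaged 1.99 FPKM in ESC7, 1.91 FPKM in ESC3, 14.1 FPKM in ESC11 and 14.2 FPKM in fibroblasts. For DIRAS3 it was PLS3 (0.989), for PEG10 ST6GALNAC6 (0.982) and for SGCE GULDH (0.936). PLS3 averaged 47.6 FPKM in ESC7, 47.1 FPKM in ESC3, 92 FPKM in ESC11 and 284 FPKM in fibroblasts, so a high correlation here did not mean a level near 0. Among the members, SNRPN and NAP1L5 (1.00), PEG10 and DIRAS3 (0.99) and PLAGL1 and NNAT (0.99) were the closest pairs, and NAP1L5 and DIRAS3 the least alike (0.72).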

How the data were processed

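RNA was measured in 12 libraries of 4 groups. Per the labels' protocols, libraries were made with a TruSeq RNA kit and read as 100 bp paired ends. The authors deposited FPKM values in 1 table of 30012 loci by 12 libraries. STAR 2.4.0b, Cufflinks 2.1.1 and the build Sscrofa10.2 are named, without roles, per the submitters' processing notes. Use of strand and treatment of multiply mapped reads are not given in the sources used here. The table holds no counts, so depth is unknown and no counting interval is given. All value columns matched a labelled sample, and no 2 libraries were identical.

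From these values, log2(FPKM + 1) was computed without further scaling. Fold changes on this scale understate the change of low genes. Loci with at least 1 FPKM in at least 3 libraries (18278) were fitted as 4 group means by limma 3.58.1 (R 4.3.3), all libraries together, with variances moderated along the mean. Tests were two-sided, and calls needed a log2 difference of 1 or more in size together with a Benjamini-Hochberg adjusted p below 0.05. Errors of FPKM are SDs over libraries, and those of log2 differences are limma standard errors. The model was also run on simulated data, with differences placed only on loci well above 0. That run does not cover genes near 0 in some groups, and nothing is read from it here. Tables and plots used Python 3.11.15, pandas 2.3.3, numpy 2.4.6 and matplotlib 3.10.9.

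The genes, the lists and the comparisons were chosen with earlier results of these data known. Named are all loci of the 7 genes, the other listed paternally expressed genes, neighbours within 200 kb with a symbol (by values, ranges or counts), overlapping genes, called imprint maintenance genes and, for each gene, Ensembl loci with a symbol and a mean of at least 1 FPKM whose pattern was most alike. The 5 unannotated neighbours that were called are named outside that rule, after their values were seen. COL3A1, COL1A1, VIM, POSTN, LUM, TWIST1, KRT7, TUBB3, PAX6, NES, NCAM1 and MAP2 are markers read beside the results. Alternatives were pseudocounts of 0.1 and 5, a minimum of 5 FPKM or none, median-ratio, same-sum and quantile scaling, a replicate term, summed loci of a symbol, and each library left out. An alternative with SGCE taken from Ensembl loci only was chosen after seeing the data.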

Additional observations from a re-analysis of the deposited data

Results flagged for a closer look

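Among the other paternally expressed genes, 4 of the 9 tested were lower in ESC7 than in ESC3 and 0 were higher. This was the test of that difference itself (limma, adjusted over all tested loci). Over all tested loci, 1.04% were lower in ESC7 and 2.34% were higher. MAGEL2 averaged 0.596 FPKM in ESC7, 21.4 FPKM in ESC3 and 14.9 FPKM in ESC11, and the log2 difference of ESC7 minus ESC3 was -3.81 ± 0.09 (SE; adjusted p = 1.22e-09). MEST averaged 2.16 ± 0.0922 FPKM in ESC7 and 13.7 ± 0.306 FPKM in ESC3 (SD, n = 3 each), with 12.5 FPKM in ESC11, and its difference was -2.22 ± 0.04 (limma adjusted p = 3.33e-10). MKRN3 averaged 0.0156 FPKM in ESC7, 2.56 FPKM in ESC3 and 1.85 FPKM in ESC11, with a difference of -1.80 ± 0.11 (adjusted p = 1.34e-06). PEG3 averaged 0.406 FPKM in ESC7, 2.75 FPKM in ESC3 and 4.58 FPKM in ESC11, with a difference of -1.41 ± 0.07 (adjusted p = 2e-07). For each of the 4 genes all 3 ESC7 libraries lay below all 3 ESC3 libraries. The share of all tested loci that separate in this way was not counted. With a pseudocount of 5 the differences were -0.59 for MKRN3 and -0.52 for PEG3, under the minimum of 1.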

How the results depend on the processing

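Libraries differ in summed FPKM (2375984 to 7715469), 54.8% to 80.6% of it on loci under 300 bp. Scaling to the same sum moved the median log2 difference of all loci to -1.16 in ESC3 minus ESC11 and -0.86 in ESC7 minus ESC11. Under it the counts lower than ESC11 were 7 other paternally expressed genes in ESC3, and 21 neighbours in ESC3 and 14 in ESC7, with 1 neighbour higher in ESC7. Imprint maintenance genes called in either direction were then 11 in ESC3 and 7 in ESC7, and 10 were higher in ESC11 than in fibroblasts. Of 36 other paternally expressed and neighbouring loci, 15 turned sign under it in ESC7 minus ESC11 and 15 in ESC3 minus ESC11, as a shift of all loci by that much gives. Those that turned and passed the call were, in ESC3 minus ESC11, MEST (-1.14), IMPACT (-1.11), BLCAP (-1.14), SF3B5 on XLOC_000076 (-1.28), LTV1 on XLOC_000078 (-1.25), FAM13A on its Ensembl locus (-1.12), HERC5 (-1.24) and PPP1R9A (-1.16), and SRC in ESC7 minus ESC11 (-1.01).

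Members higher in ESC11 than in fibroblasts numbered 2, 1 with median-ratio scaling, quantile normalization or a pseudocount of 5, and 3 with scaling to the same sum, where NNAT was called and 2 members were lower. Leaving out 1 library gave 1 to 2, with 1 without fibroblast library 1. The other paternally expressed genes lower in ESC7 numbered 2 with a minimum of 5 FPKM or a pseudocount of 5. Imprint maintenance genes higher in ESC11 than in fibroblasts numbered 3 with a pseudocount of 5, and 1 was lower with median-ratio scaling or quantile normalization. With a pseudocount of 0.1, 1 was called in ESC7 against ESC11. Neighbours higher in ESC7 than in ESC11 ranged over 0 to 1 with a library left out, the 1 being PHACTR2 without ESC7 library 1. The median residual share in ESC3 was 0.3% with Ensembl loci only, and 0.261% to 3.33% with a library left out, 0.261% without ESC3 library 2. In ESC7 it was 0.924% with Ensembl loci only and 1.14% to 3.24% with a library left out. The cause was not tested.

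Same-numbered libraries of different groups deviated with correlations of -0.09 to 0.0867, so the numbers were not taken as pairs. With the replicate number as a block, 7843 loci were called in ESC11 against fibroblasts, where 7847 were called without it, and 0 members in ESC7 against ESC3 in both fits. Unknown depth limits every value near 0, since an FPKM of 0 cannot be given an upper limit.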
